A study of Mus musculus with 4 samples.

Results

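The semaphorin signalling genes of mouse adipose nuclei were taken as every gene of the deposited feature lists whose symbol names a semaphorin, a plexin or a neuropilin. That rule gave 31 of 32285 genes, without use of any measured value. They comprise 7 secreted class 3 semaphorins (Sema3a to Sema3g), 12 membrane semaphorins of classes 4 to 6, the GPI-anchored Sema7a, 9 plexins and 2 neuropilins (Nrp1 and Nrp2). Of the 31, 26 reached 50 CPM in at least 1 named class of nuclei. CPM here is the number of unique molecular identifiers (UMIs, counted molecules) of a gene for each 1000000 UMIs of all genes in the same nuclei. Some members reached that level on few UMIs only, such as Sema3f on 7 and Sema4f on 10.

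Semaphorins are ligands that were first known for steering growing axons and are also known in vessels, immune cells and fat. Plexins are their receptors and act on the cytoskeleton through small GTPases. Most class 3 semaphorins bind a neuropilin, which has no signalling domain of its own and pairs with an A-type plexin; Sema3e is the exception and binds Plxnd1 directly. Class 6 semaphorins bind A-type plexins without a neuropilin, Sema4d binds B-type plexins and, on lymphocytes, Cd72, and Sema7a binds Plxnc1 and integrins. Nrp1 and Nrp2 are also co-receptors for vascular endothelial growth factors, Nrp2 being known in lymphatic vessels. In adipose tissue, endothelial cells, nerves, macrophages and fibroblast-like progenitors of adipocytes all carry members of the family.

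The study sequenced single nuclei of mice on a high-fat diet after surgery, which the series title calls bariatric, or after a sham operation. The 4 libraries were made, 1 per group: BAT surgery and BAT sham from tissue labelled brown (BAT), and BeAT surgery and BeAT sham from tissue labelled beige (BeAT). All 4 groups shared the high-fat diet, and the labels give no strain, sex, age, time after surgery, kind of operation or number of animals pooled. With 1 library per group no test was made, and no model over the 4 libraries was fitted. Every interval below is an exact 95% interval that covers counting error only, and every difference is between libraries.

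After filtering, 9131, 9970, 5302 and 9760 nuclei were kept in BAT surgery, BAT sham, BeAT surgery and BeAT sham, with median depths of 5168, 3978, 2647 and 3062.5 UMIs. Clustering gave 37 clusters, 31 of which were named from marker lists into 12 classes, and 274 of 33886 kept barcode sequences occurred in more than 1 library. Nuclei labelled brown lacked the marker that defines brown fat: Ucp1, its uncoupling protein, had 0, 2, 0 and 3 UMIs in the adipocyte-like nuclei of the libraries in that order, whereas Adipoq, the adiponectin gene, had 323.8, 578.9, 292 and 830 CPM. The libraries differed in make-up. BAT surgery held 5649 epithelial-like nuclei that expressed epididymal genes, against 59 in BAT sham, and BeAT surgery held 1698 B cell-like and 1567 T or NK-like nuclei, against 46 and 196 in BeAT sham. RNA of these cells was found in the other classes too: the summed level of 9 epididymal genes was 1833 CPM in the progenitor-like nuclei of BAT surgery and 4.87 CPM in those of BAT sham.

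The members divided the classes of nuclei by role and by class. Classes were defined by clustering the same nuclei, so these levels are a description, and 10 members were among the variable genes used. When the clusters were made again without the members, 98.56% of nuclei kept their class. Sema3e was among the leading genes of progenitor cluster 11 and Sema3d among those of the lymphatic cluster, and neither is offered as a finding about those clusters.

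**Figure D1:**
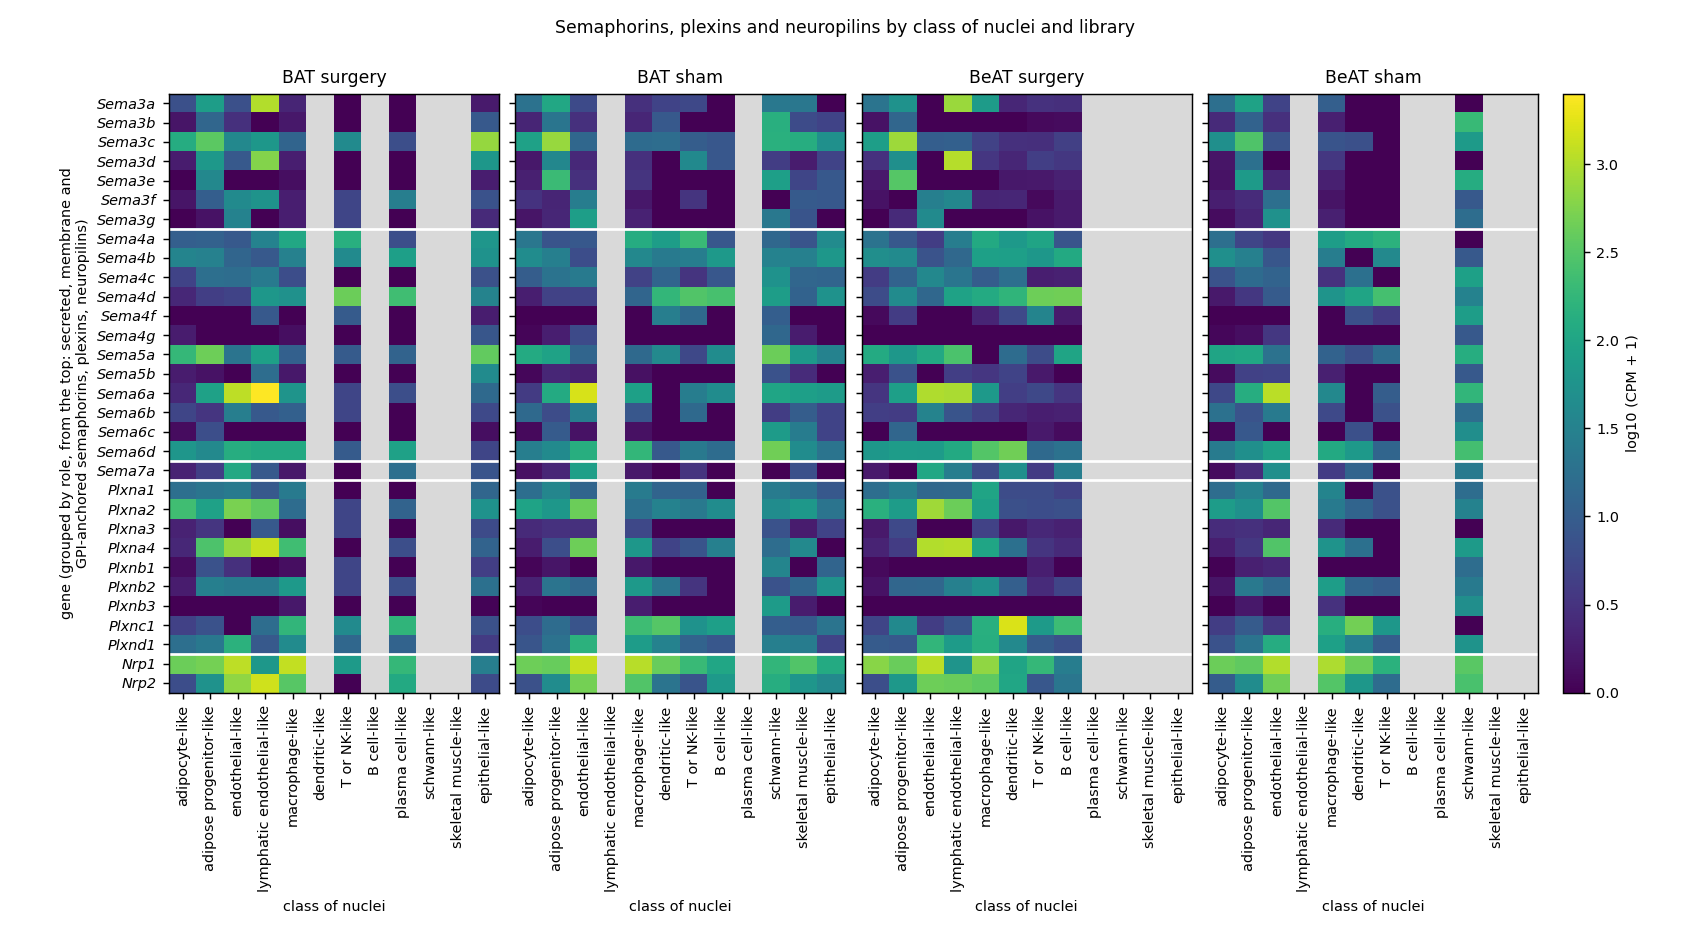
Levels of the 31 members as log10(CPM + 1), in 4 panels of 1 library each, with the 12 named classes as columns. Grey marks a class with under 50 nuclei in the library. Sema6a, Nrp1 and Plxna4 are bright (high) in the endothelial columns, Sema3c in the progenitor columns and Plxnc1 in the dendritic columns. Plxna3 and Sema4g stay dark (low) in every column with values.

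Among the secreted ligands, Sema3c was found in progenitor-like nuclei at 345.6 CPM in BAT surgery, 750.8 in BAT sham, 801.8 in BeAT surgery and 291.1 in BeAT sham. Sema3a, the founding repulsive ligand of the class, was highest in lymphatic endothelial-like nuclei, at 1021 CPM in BAT surgery and 772.2 in BeAT surgery, the libraries with over 50 such nuclei, and reached between 53.7 and 107.6 CPM in progenitor-like nuclei. Sema3d, too, was highest in the lymphatic nuclei, with 584.4 CPM in BAT surgery and 1056 in BeAT surgery. In the same libraries, Sema3a stayed under 20 CPM in the blood endothelial-like nuclei. Sema3g, known in mice from arterial endothelium, had no UMI in the lymphatic nuclei and 31.2, 78.5, 41.2 and 51.3 CPM in the endothelial-like nuclei of BAT surgery, BAT sham, BeAT surgery and BeAT sham. Schwann-like nuclei, the glia of peripheral nerves, had the highest Sema3b, with 45 UMIs or 140.2 CPM for BAT sham and 25 UMIs or 194.5 CPM for BeAT sham.

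The membrane ligands lay in other cells. Sema6a, which binds Plxna2 and Plxna4, had 1145, 1549, 976.8 and 1129.6 CPM in endothelial-like nuclei of BAT surgery, BAT sham, BeAT surgery and BeAT sham, and 2486 and 917.4 CPM in the lymphatic nuclei of BAT surgery and BeAT surgery. Sema4d, the CD100 antigen of lymphocytes, had 434, 302.7, 446.8 and 251.5 CPM in T or NK-like nuclei in the same order of libraries, and 462.1 CPM in the B cell-like nuclei of BeAT surgery. Lymphocytes also carried Sema4a, at 137.7, 199.6, 95.3 and 152.7 CPM in T or NK-like nuclei. Schwann-like nuclei, present in number only in the sham libraries, had 464.1 CPM of Sema6d and 429.8 of Sema5a in BAT sham, against 241.1 and 132.2 in BeAT sham. Sema7a was highest in endothelial-like nuclei, with 113.1, 82.9, 107.8 and 48.1 CPM in the 4 libraries.

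The receptors were shared more widely. Nrp1 was found at 1157, 1281, 1100.5 and 1033 CPM in endothelial-like nuclei of BAT surgery, BAT sham, BeAT surgery and BeAT sham, at 1222, 1099, 677 and 943.8 CPM in macrophage-like nuclei, and at between 370.6 and 614.9 CPM in adipocyte-like and progenitor-like nuclei. In lymphatic nuclei it had 62.3 CPM in BAT surgery and 56.1 in BeAT surgery. Nrp2 showed the other order there, with 1442 CPM in lymphatic and 686.7 in blood endothelial-like nuclei of BAT surgery, although in BeAT surgery its levels were 422.4 and 447.2 CPM. Plxna4, an A-type plexin, had 754.9, 446.7, 1015 and 297.8 CPM in endothelial-like nuclei, and Plxnc1 had 318.6, 1630.4 and 479.5 CPM in the dendritic-like nuclei of BAT sham, BeAT surgery and BeAT sham. Plxnb2 was highest in macrophage-like nuclei, at 65.6, 68.9, 48.0 and 77.7 CPM in BAT surgery, BAT sham, BeAT surgery and BeAT sham. In Schwann-like nuclei of BAT sham, Plxnb3 and the ligand Sema6c each had 71.6 CPM on 23 UMIs. At the low end, Plxna3 did not exceed 7.79 CPM and Sema4g 12.5 CPM in any named class. Likewise, Sema6b, Plxnb1 and Sema5b did not exceed 31.7, 34.3 and 42.3 CPM. Where the counting did not use strand, which the sources used here do not state, reads of antisense genes cannot be told apart: 8 of the 31 members are overlapped by another counted gene, and for 2 of them that gene's count was over 10% of the member's own, 37.2% for Sema4c and 13.7% for Plxnb1.

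Surgery and sham libraries were first compared within adipocyte-like, progenitor-like, endothelial-like and macrophage-like nuclei, and then, with fewer UMIs, within dendritic-like and T or NK-like nuclei. A member was called higher or lower where the libraries together held at least 50 of its UMIs, its CPM differed at least 2-fold and the exact conditional binomial interval of the ratio did not include 1. Across the 8 comparisons in the first 4 classes and the same 4 of BAT sham over BeAT sham, 41 calls were made for 20 different members, and the 11 without a call in these 12 were Nrp1, Nrp2, Plxna3, Plxnb1, Plxnb2, Plxnb3, Sema3b, Sema4f, Sema4g, Sema5b and Sema6c. The share of all genes called by the same rule is given with the first count of each comparison, because in these libraries it was itself large, and the counts of the pathway lists belong beside the same share.

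In progenitor-like nuclei of BAT surgery, a plexin and a class 5 semaphorin were higher and the class 3 ligands Sema3c and Sema3e were lower than in BAT sham. Of the 20 members with enough UMIs, 2 were called higher and 3 lower, against 18.3% of all genes called (7.67% higher, 10.7% lower). Their median log2 ratio was 0.01, against -0.00 for all genes. Plxna4 had 599 UMIs, or 282.4 CPM, in BAT surgery and 41 UMIs, or 5.54 CPM, in BAT sham, a ratio of 51.0 (37.1 to 71.8). In BeAT it was close to 0 in both libraries, at 3.07 CPM after surgery and 2.56 in sham. Sema5a, a ligand with thrombospondin repeats, had 448.8 CPM in BAT surgery and 90.3 in BAT sham, a ratio of 4.97 (4.50 to 5.50). Sema3e had 38.2 CPM in BAT surgery and 209.3 in BAT sham, which is 5.48-fold lower (4.38 to 6.94), and Sema3c had 345.6 and 750.8 CPM, which is 2.17-fold lower (2.01 to 2.35). Plxnc1 had 6.13 and 14.9 CPM, 2.43-fold lower (1.36 to 4.70).

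These ratios moved with the make-up of the class. Of the 564 progenitor-like nuclei of BAT surgery, 546 lay in cluster 15, led by C7, Col6a5 and Wt1, whereas BAT sham had 819 in cluster 8, led by Lama2 and Smoc2, 778 in cluster 11, led by Opcml and Gfpt2, and 190 in cluster 15. Sema3e belonged to cluster 11 among the sham nuclei, at 450.7 CPM in BAT sham against 2.73 CPM in cluster 8. Within cluster 15, where 14.6% of all genes were called, it had 33.2 CPM in BAT surgery and 20.9 in BAT sham, a ratio of 1.59 (0.90 to 2.99). That interval included 1, so Sema3e was not called there and no direction is shown. Sema3c, with 333.3 CPM in BAT surgery and 407 in BAT sham there, was no longer called, and set against BeAT sham in place of BAT sham its class ratio was 1.19. Plxna4 and Sema5a kept their calls within the cluster: Plxna4 had 288 CPM in BAT surgery and 18.1 in BAT sham, a ratio of 15.9 (9.22 to 30.03), and Sema5a had 450.3 and 50.2 CPM, a ratio of 8.97 (6.43 to 12.9). Sema3a was higher in cluster 15 of BAT surgery, at 78.0 CPM against 22.3 in BAT sham (ratio 3.50, 2.09 to 6.27), and Sema3d was 2.68-fold lower, at 65.0 CPM against 174.2.

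Markers of mesothelium, the epithelium that covers serous membranes, stood apart in the same nuclei. The 7 listed mesothelial genes summed to 692.1 CPM in the progenitor-like nuclei of BAT surgery and to 5.68 CPM in those of BAT sham, and all 7 had UMIs in BAT surgery. Wt1 had 325.8 CPM in BAT surgery and 0 UMIs in BAT sham, Muc16 had 146.6 against 1.35 CPM, and Upk3b had 57.5 against 0.135 CPM. The progenitor-like nuclei of BAT surgery were therefore divided, after these values were seen, by whether they held any UMI of the 7 genes. Plxna4 had 462.4 CPM (425.3 to 501.9) in the 290 nuclei with such a UMI and 30.5 CPM (20.1 to 44.4) in the 274 without, and Sema3a had 122.9 CPM (104.1 to 144) in those with and 11.3 CPM (5.42 to 20.8) in those without. Of the class's UMIs in BAT surgery, 572 of 599 of Plxna4 and 152 of 162 of Sema3a lay in nuclei with mesothelial UMIs. BAT sham did not show this split. Its 36 nuclei with such a UMI had 5.25 CPM of Plxna4 and 63.0 of Sema3a, and its 1751 without had 5.55 and 108.8 CPM. In BeAT surgery, Wt1 had 32.2 CPM in the class, while Msln, Upk3b, Krt19, Upk1b and Lrrn4 had 0 UMIs. Sema5a was spread over both kinds, at 477 CPM (439.3 to 517.1) with and 409.4 CPM (368.3 to 453.9) without. With the nuclei that held a mesothelial UMI left out of both libraries, the ratio of BAT surgery over BAT sham was 5.50 for Plxna4 and 4.59 for Sema5a, and both were still called. The median depth was 3854.5 UMIs with and 3021.5 without such a UMI, and shallow nuclei miss markers more often.

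Epithelial RNA also stood higher in the progenitor-like nuclei of BAT surgery. The 9 epididymal genes summed to 1833 CPM in them and to 4.87 CPM in those of BAT sham, and to 9330 CPM in the epithelial-like nuclei of BAT surgery. Those epithelial-like nuclei had 379.2 CPM of Sema5a, 725.3 of Sema3c and 10.97 of Plxna4. In the endothelial-like nuclei of the same library the 9 genes summed to 3301 CPM, with Sema5a at 19.5 CPM and Sema3c at 37.1 CPM. What part epithelial RNA had in the progenitor ratios was not tested.

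In progenitor-like nuclei labelled beige, 3 secreted ligands and 1 plexin were higher after surgery. Of 16 members with enough UMIs, 4 were called higher and none lower, against 23.1% of all genes called (5.48% higher, 17.7% lower). That count in either direction lay near the share of all genes. The members' median log2 ratio was 0.37, against -0.06 for all genes. Sema3c had 801.8 CPM in BeAT surgery and 291.1 in BeAT sham, a ratio of 2.75 (2.47 to 3.07). Sema3e, the Plxnd1 ligand, had 320.4 and 69.9 CPM, a ratio of 4.59 (3.77 to 5.57). Sema3d had 32 UMIs at 49.1 CPM and 53 UMIs at 17 CPM, a ratio of 2.89 (1.80 to 4.56). Plxnc1 had 26 UMIs in each library, 39.9 against 8.34 CPM, with a ratio of 4.78 (2.67 to 8.57). In the same nuclei, 9 lymphoid genes summed to 441.5 CPM in BeAT surgery and 30.1 in BeAT sham, and Plxnc1 was itself at 211.9 CPM in the B cell-like nuclei; the part of such RNA in the Plxnc1 difference was not tested.

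The beige progenitor differences also depended on clusters, of which BeAT surgery held 56, 67 and 42 nuclei in clusters 8, 11 and 15, against 652, 237 and 95 in BeAT sham. Within cluster 11, where 27.5% of all genes were called, Sema3e had 740.8 CPM in BeAT surgery and 255.1 in BeAT sham, a ratio of 2.90 (2.39 to 3.53), and was still called. Sema3c had 1597 and 895.4 CPM there, which is 1.78-fold higher and under the fold required. Within cluster 8, where 20.2% were called, Sema3c had 155.2 CPM in BeAT surgery and 30.1 in BeAT sham, a ratio of 5.15 (3.28 to 7.98), and Plxna2 and Sema4b were also called higher, at 2.62-fold and 2.53-fold. Sema3c was therefore higher in BeAT surgery in each of the clusters 8 and 11, and Sema3e in cluster 11, which held 206 of its 209 UMIs after surgery.

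Sema3c, Sema3d and Sema3e lie on the plus strand of chromosome 5. Their promoters are shown because the 3 were called higher in BeAT surgery progenitor-like nuclei. Sema3a also lies on this strand, between Sema3d and Sema3e. It went the other way in those nuclei, at fewer CPM in BeAT surgery than in BeAT sham, and was not called. Sequences are from RefSeq on GRCm38.p6, plus strand, and run from 250 bases before to 50 bases after the annotated start; 26 of the 31 members had an entry. Capitals mark matches, on either strand, to GGGCGG (GC box) or CCAAT, which 35.7% and 37.4% of 32851 promoters of the same length hold.
Sema3c, chr5:17574566-17574865: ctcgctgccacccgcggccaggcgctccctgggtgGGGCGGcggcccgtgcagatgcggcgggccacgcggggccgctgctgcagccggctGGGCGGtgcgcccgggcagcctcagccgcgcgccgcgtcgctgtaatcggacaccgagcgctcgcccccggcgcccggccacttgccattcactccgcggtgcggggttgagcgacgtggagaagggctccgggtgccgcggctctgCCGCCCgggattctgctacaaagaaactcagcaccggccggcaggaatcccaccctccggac
Sema3d, chr5:12382916-12383215: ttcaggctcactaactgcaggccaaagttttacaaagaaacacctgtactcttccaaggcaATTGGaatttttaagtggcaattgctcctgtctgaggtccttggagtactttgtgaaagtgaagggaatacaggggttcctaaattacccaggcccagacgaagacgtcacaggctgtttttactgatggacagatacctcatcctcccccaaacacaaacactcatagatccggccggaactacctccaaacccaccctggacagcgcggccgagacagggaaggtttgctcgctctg
Sema3e, chr5:14025026-14025325: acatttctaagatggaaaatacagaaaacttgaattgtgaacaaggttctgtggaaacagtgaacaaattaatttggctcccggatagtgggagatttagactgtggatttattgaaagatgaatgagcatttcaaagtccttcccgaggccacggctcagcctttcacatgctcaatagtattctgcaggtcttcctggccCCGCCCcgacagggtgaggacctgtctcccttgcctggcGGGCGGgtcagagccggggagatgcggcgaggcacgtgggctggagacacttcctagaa
The Sema3c window had 3 GC box matches and a GC content of 75.7%, the Sema3e window 2 GC box matches and 50.7%, and the Sema3d window 1 CCAAT match, on the reverse strand, and 49.7%. The letters TATAAA, held by 13.6% of promoters, and TGANTCA, an AP-1 element held by 7.81%, were not in any of the 3 windows. The windows thus shared no searched motif across all 3 genes.

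**Figure D2:**
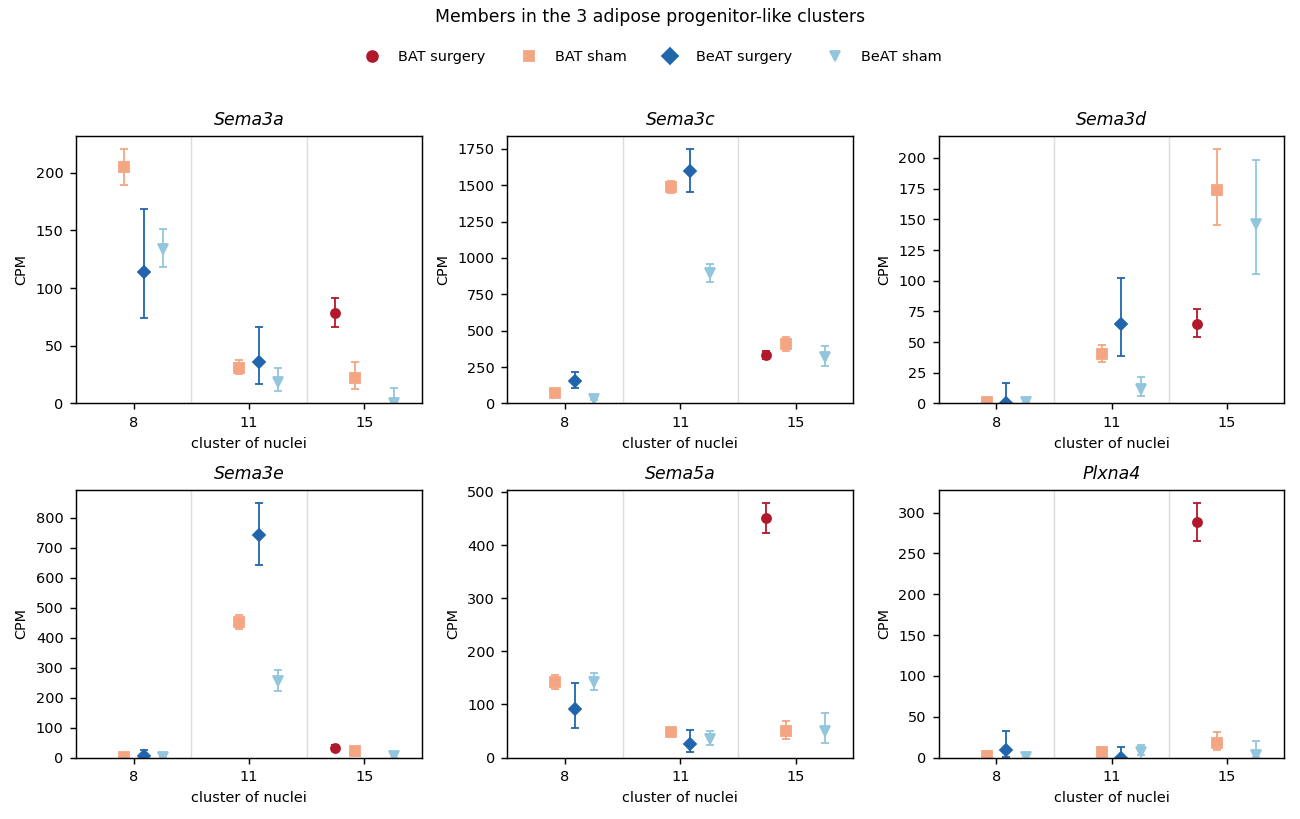
CPM of Sema3a, Sema3c, Sema3d, Sema3e, Sema5a and Plxna4 in progenitor clusters 8, 11 and 15, 1 point per library with at least 50 nuclei and bars for exact 95% Poisson intervals of counting error. Sema3e lies near 0 in cluster 8 and between 255.1 and 740.8 CPM in cluster 11, and Plxna4 exceeds 20 CPM in cluster 15 of BAT surgery only.

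Other genes of the pathway were read from lists of 14 receptor partners, 5 VEGF ligands that bind neuropilins, 36 cytoplasmic effectors and 40 genes of other guidance families. In BAT progenitor-like nuclei, 3 of 9 receptor partners with enough UMIs were called higher and 1 lower, among them Chl1, a cell adhesion partner of Nrp1, with 91.9 CPM in BAT surgery and 2.03 in BAT sham. Vegfc, a ligand of Nrp2, had 291.4 CPM in BAT surgery and 36.9 in BAT sham (7.90-fold higher), and 125.7 CPM in BeAT surgery and 17.6 in BeAT sham (7.13-fold higher). Vegfa, a ligand of Nrp1, was 4.21-fold lower in BAT surgery, at 26.9 CPM against 113.1 in BAT sham, in nuclei where 8 adipocyte genes summed to 1201 and 4390 CPM; adipocytes carry Vegfa, and the part of their RNA was not tested. Of 29 effectors, 3 were called higher in BAT surgery, with Mical2, of the MICAL family of actin-oxidising enzymes, at 5.17-fold. The values of list genes, here and in the other classes below, are for the whole class and are not given within clusters. Cluster 15 made up 96.8% of the progenitor-like class in BAT surgery and 10.6% in BAT sham. In BeAT it made up 25.5% after surgery and 9.65% in sham. Of 20 genes of other guidance families, 5 were called higher and 3 lower in BAT surgery; in BeAT surgery 5 of 13 were higher and none lower, including Slit2 at 236 CPM against 92 in BeAT sham and its receptor Robo1 at 553 against 224 CPM. In BeAT, 1 of 5 receptor partners was called higher, 1 of 4 VEGF ligands higher and 1 lower, and 1 of 27 effectors higher and 3 lower. The lists' median log2 ratios in BAT and BeAT progenitor-like nuclei were 0.04 and -0.60 for receptor partners, 0.90 and 0.28 for VEGF ligands, 0.09 and 0.32 for effectors, and 0.54 and 0.46 for other guidance families, over genes with at least 20 UMIs in the pair and some in each library; the lists' medians given for the other classes follow the same rule.

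In adipocyte-like nuclei, Sema6d was higher and Sema4c and Sema6b were lower after surgery under both labels. In BAT, 16 members had enough UMIs, of which 3 were called higher and 5 lower, against 17.4% of all genes called (5.36% higher, 12.1% lower), with a median log2 ratio of -0.39, against -0.08 for all genes. In BeAT, 15 had enough UMIs, with 1 called higher and 2 lower, against 19.9% of all genes (4.47% higher, 15.4% lower). That count in either direction lay near the share of all genes. The members' median log2 ratio in BeAT was 0.21, against -0.09 for all genes. Sema6d, a ligand of Plxna1 that is known from the heart and from myeloid cells, had 60.2 CPM in BAT surgery and 27.9 in BAT sham, a ratio of 2.16 (1.85 to 2.52), and 62.3 CPM in BeAT surgery and 25.3 in BeAT sham, a ratio of 2.46 (2.12 to 2.86). Both surgery libraries stood above both sham libraries. Sema6b, a ligand of Plxna4, had 4.16 CPM in BAT surgery and 13.5 in BAT sham, 3.24-fold lower (1.94 to 5.86), and 3.24 CPM in BeAT surgery and 17.4 in BeAT sham, 5.36-fold lower (3.15 to 9.90). Sema4c, a ligand of B-type plexins, had 3.88 against 9.20 CPM in BAT, 2.37-fold lower (1.38 to 4.4), and 3.01 against 6.46 CPM in BeAT, 2.15-fold lower (1.21 to 4.14). The antisense gene that overlaps Sema4c held 37.2% as many UMIs as Sema4c itself over all nuclei. Sema6d spans 577.8 kb, Sema6b 17.3 kb and Sema4c 9.71 kb, while Sema3a, which was lower in BAT, spans 477.2 kb. Over all kept nuclei, the median mitochondrial share was 0.037% in BAT surgery, 0.148% in BAT sham, 0.084% in BeAT surgery and 0.427% in BeAT sham. What part these library differences had in the ratios was not tested.

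The remaining adipocyte calls were in BAT. Plxna2, an A-type plexin, had 227.2 CPM in BAT surgery and 92.1 in BAT sham, a ratio of 2.47 (2.28 to 2.67); in BeAT it had 144.5 CPM after surgery and 75.4 in sham, which is under the fold required. Plxnd1, the receptor of Sema3e, had 16.6 against 6.87 CPM, a ratio of 2.42 (1.78 to 3.27). Sema3a was 3.11-fold lower (2.01 to 5.07) at 5.83 CPM in BAT surgery against 18.1 in BAT sham, and Sema4a was 2.22-fold lower (1.58 to 3.23) at 9.71 against 21.6 CPM. Sema3f, with 2 UMIs in BAT surgery and 54 in BAT sham, had a ratio that was 3.84-fold lower (1.01 to 32.5). The co-receptor Nrp1 was among the members without a call, at 427.5 CPM in BAT surgery, 451.3 in BAT sham, 614.9 in BeAT surgery and 427.1 in BeAT sham. No adipocyte cluster held 50 nuclei of both BAT libraries: 521 of the 568 nuclei of BAT surgery lay in cluster 19, which held 2 of BAT sham. In BeAT, cluster 2 held 399 nuclei after surgery and 1290 in sham, and within it Sema6d was 2.29-fold higher, Sema6b 4.44-fold lower and Sema4c 2.09-fold lower, all still called, against 15.7% of all genes. Cluster 1 held 83 of the adipocyte-like nuclei of BeAT surgery, 16.8% of them, and 2851 of BeAT sham, 57.1%. Within it 13.1% of all genes were called: Sema6b was called lower on 1 and 185 UMIs and Sema3a higher, at 39.8 against 19.6 CPM (ratio 2.02, 1.14 to 3.37), while Sema6d, with a ratio of 1.75 (0.984 to 2.90), and Sema4c, with 1 and 68 UMIs, were not called. The 9 epididymal genes summed to 765.8 CPM in the adipocyte-like nuclei of BAT surgery and 6.12 in those of BAT sham, and the 9 lymphoid genes to 138.3 CPM in those of BeAT surgery and 29.97 in BeAT sham. What part such RNA had in these ratios was not tested.

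Vegfa and Vegfb, growth factors that reach vessels from adipocytes, had 245.5 and 35 CPM in BAT surgery against 500.5 and 70.3 in BAT sham, 2.04-fold and 2.01-fold lower, and Vegfc was 5.86-fold higher at 8.32 against 1.42 CPM. Among 8 receptor partners in BAT adipocyte-like nuclei, 1 was called higher and 3 lower, including the collagen-binding integrin subunit Itga1 at 48.3 against 219.7 CPM; in BeAT none was higher and 3 of 8 were lower, Itga1 among them at 90.6 CPM after surgery and 191 in sham. Of the effectors, 3 of 29 were lower in BAT, and 3 of 28 were higher and 3 lower in BeAT. Of the other guidance families, 4 of 20 were higher and 4 lower in BAT, and 5 of 20 were higher and 1 lower in BeAT. Slit2 was 9.76-fold higher in BAT surgery, at 36.6 CPM against 3.75, and 6.97-fold higher in BeAT surgery, at 8.34 CPM against 1.2. In BeAT, 1 of 3 VEGF ligands was lower. Median log2 ratios in BAT and BeAT adipocyte-like nuclei were -0.51 and -0.60 for receptor partners, -0.70 and -0.07 for VEGF ligands, 0.15 and 0.37 for effectors, and 0.15 and 0.55 for other guidance families.

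In endothelial-like nuclei the A-type plexins Plxna2 and Plxna4 were higher in BeAT surgery than in BeAT sham. Of 10 members with enough UMIs, 4 were called higher and none lower, against 34% of all genes called (12.8% higher, 21.1% lower); the count in either direction lay near the share of all genes, and the members' median log2 ratio was 0.38, against 0.05 for all genes. The other A-type plexins had too few UMIs for the rule, with 4 and 21 for Plxna1 and 0 and 2 for Plxna3 in BeAT surgery and BeAT sham. Plxna4 had 1015 CPM in BeAT surgery and 297.8 in BeAT sham, a ratio of 3.41 (2.95 to 3.94). Plxna2 had 824.6 and 312.6 CPM, a ratio of 2.64 (2.26 to 3.07). In the BAT libraries these plexins were at 754.9 CPM after surgery and 446.7 in sham for Plxna4, and at 513 and 429.9 CPM for Plxna2, so BeAT surgery stood highest and BeAT sham lowest of the 4 libraries for both. Sema7a had 107.8 CPM in BeAT surgery and 48.1 in BeAT sham, a ratio of 2.24 (1.45 to 3.4). Sema5a rested on 35 and 28 UMIs, 111 against 17.97 CPM, with a ratio of 6.18 (3.65 to 10.5). Sema6a, a ligand of both plexins, was not called, at 976.8 CPM in BeAT surgery and 1129.6 in BeAT sham, nor was Nrp1, at 1100.5 and 1033 CPM.

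The plexin difference was also found within the endothelial cluster 10, led by Gpihbp1, which held 78 nuclei of BeAT surgery and 493 of BeAT sham. There, with 36.5% of all genes called, Plxna4 had 937.6 CPM after surgery and 249.4 in sham, a ratio of 3.76 (3.11 to 4.53), and Plxna2 had 968.2 and 334.4 CPM, a ratio of 2.90 (2.43 to 3.45). Sema7a was 1.97-fold higher there, under the fold required, and Sema5a had 9 and 18 UMIs, too few for the rule. In cluster 10 of BAT, where 18.1% were called, Plxna4 was 1.96-fold higher, at 659.8 CPM in BAT surgery and 337.1 in BAT sham. The BeAT surgery class had 114 nuclei against 618 in BeAT sham, the 9 lymphoid genes summed to 440.8 CPM in it and 46.9 in BeAT sham, and 8 adipocyte genes summed to 2480 and 3271 CPM. The 5 erythroid markers summed to 244.2 CPM in BeAT surgery and 8285 in BeAT sham, and the 10 endothelial markers themselves to 14800 and 8725 CPM. What part these had in the plexin ratios was not tested. In the adipocyte-like nuclei of BeAT surgery, Plxna2 stood at 144.5 CPM, below the endothelial level.

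In BAT endothelial-like nuclei, 12 members had enough UMIs, none was called higher and 1 lower, against 18.5% of all genes called (5.58% higher, 12.9% lower), with a median log2 ratio of 0.26, against -0.04 for all genes. Sema3g had 16 UMIs, or 31.2 CPM, in BAT surgery and 163 UMIs, or 78.5 CPM, in BAT sham, 2.52-fold lower (1.5 to 4.51). The 9 epididymal genes summed to 3301 CPM in these nuclei of BAT surgery and 4.34 in those of BAT sham, and the 8 adipocyte genes to 833 and 3057 CPM. The called difference lay in cluster 22, led by Cytl1, Selp and Sox17, where Sema3g had 34.7 CPM in BAT surgery and 169.9 in BAT sham, 4.90-fold lower on 8 and 94 UMIs, against 15.8% of all genes called. In cluster 10 it had 28.4 and 45.3 CPM and was not called. BAT sham was also above BeAT sham in cluster 22, at 169.9 against 74.3 CPM, where 11.6% of all genes were called. The endothelial clusters divided the receptors: Nrp1 had 1788, 1530, 1514 and 1181 CPM in cluster 10 of BAT surgery, BAT sham, BeAT surgery and BeAT sham, and 385.7, 596.6 and 470.5 CPM in cluster 22 of BAT surgery, BAT sham and BeAT sham. Plxna4 ran the other way, with 871.2, 748.5 and 482.8 CPM in cluster 22 of those 3 libraries.

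**Figure D3:**
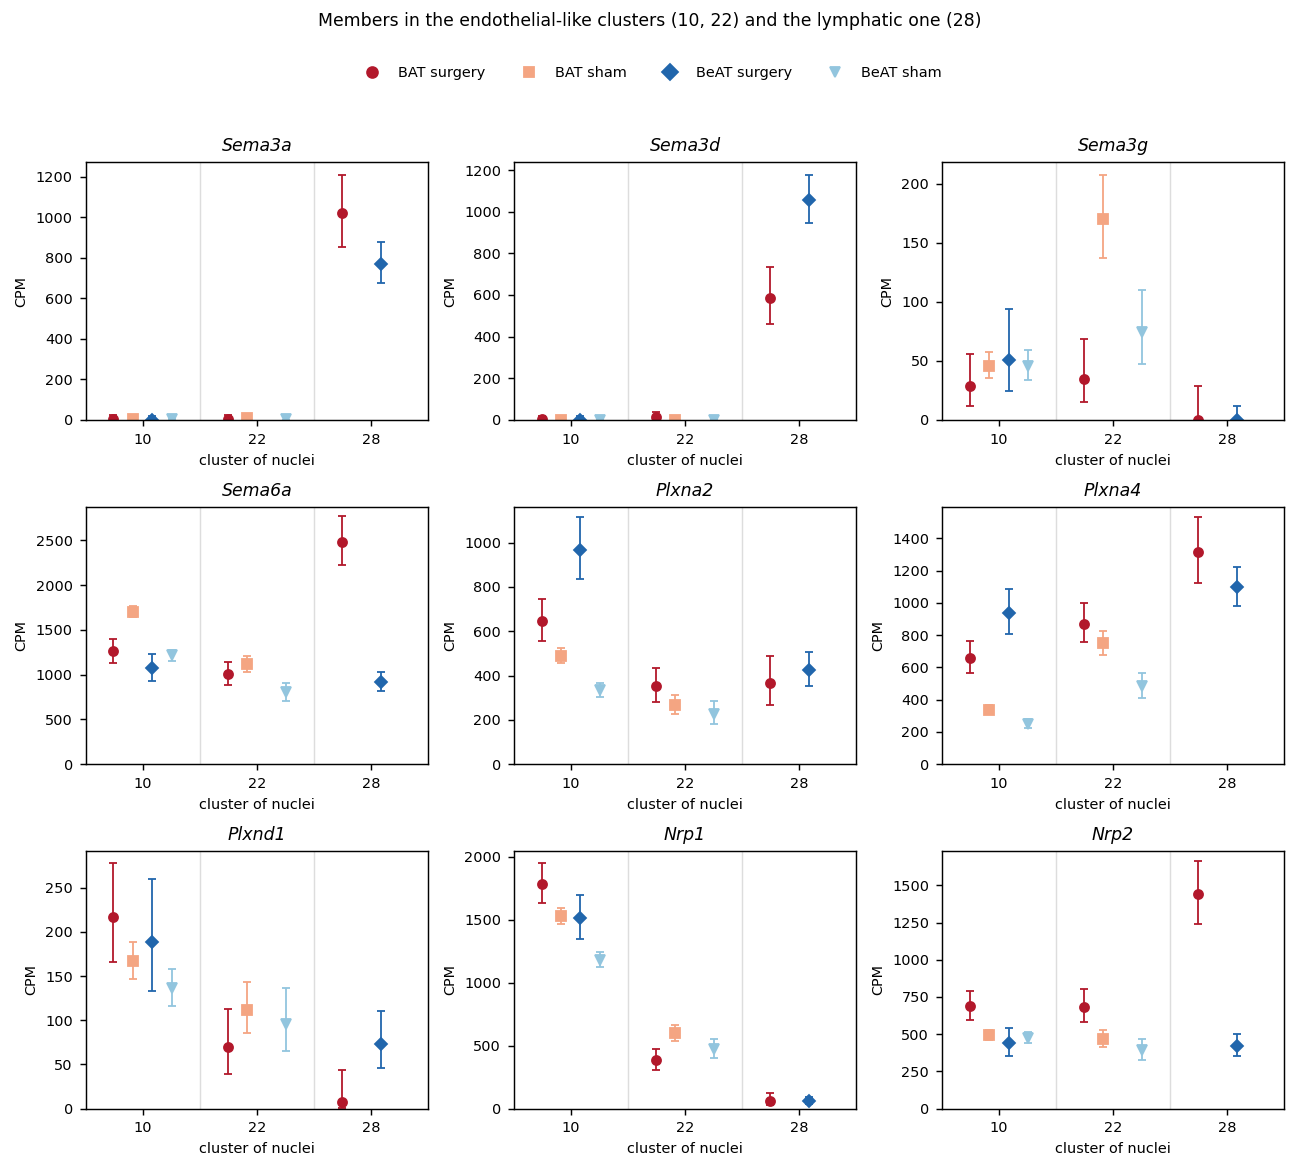
CPM of 9 members in endothelial clusters 10 and 22 and in the lymphatic cluster 28, 1 point per library with at least 50 nuclei and bars for exact 95% Poisson intervals of counting error. Nrp1 is at 1181 CPM or more in cluster 10 and at 62.3 CPM or less in cluster 28, Sema3a and Sema3d are high in cluster 28 alone, and Plxna2 and Plxna4 of BeAT surgery lie above BeAT sham in cluster 10.

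The lymphatic cluster held 54 nuclei of BAT surgery and 81 of BeAT surgery, and 38 and 14 of the shams, so surgery and sham were not compared in it. Between the surgery libraries, Sema6a was at 2486 CPM in BAT surgery and 917.4 in BeAT surgery, Nrp2 at 1442 and 422.4 CPM, and Plxna4 at 1317 and 1096 CPM. Sema5a was at 85.7 CPM on 11 UMIs in BAT surgery and 273.9 CPM on 83 UMIs in BeAT surgery. These are values of single libraries with few nuclei.

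Among the pathway lists in endothelial-like nuclei, the VEGF receptors gave different calls in the pairs. Kdr was 2.20-fold lower in BAT surgery, at 308.2 CPM against 679.5 in BAT sham, and Flt1 was 2.08-fold higher in BeAT surgery, at 1963 CPM against 942.8 in BeAT sham. Of 6 receptor partners, 1 was called lower in BAT, and 2 of 6 were called higher in BeAT. Of the VEGF ligands, 2 of 3 were lower in BAT and 1 of 3 in BeAT. The adipocyte genes, with the sums given above, were also lower in both surgery libraries. The part of their RNA in the VEGF ligand calls was not tested. The effectors held 1 higher and 2 lower of 23 in BAT, and 7 higher and 4 lower of 22 in BeAT, with the kinase gene Limk2 at 3.4-fold higher and its substrate cofilin, Cfl1, at 2.59-fold lower. Other guidance families had 2 higher and 2 lower of 14 in BAT, and 3 higher and 1 lower of 12 in BeAT. Median log2 ratios in BAT and BeAT endothelial-like nuclei were -0.68 and 0.21 for receptor partners, -1.18 and -0.79 for VEGF ligands, 0.14 and 0.59 for effectors, and -0.18 and 0.46 for other guidance families.

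In macrophage-like nuclei, Sema4d was higher after surgery under both labels, and BeAT surgery had 5 further members higher. In BAT, 2 of 16 members were called higher and none lower, against 15.8% of all genes called (4.83% higher, 11% lower). That count in either direction lay near the share of all genes. The members' median log2 ratio was -0.20, against -0.01 for all genes. In BeAT, 6 of 14 were called higher and none lower, against 23.4% of all genes called (7.86% higher, 15.6% lower); the median was 0.85, against -0.00. Sema4d had 51.3 CPM in BAT surgery and 11.7 in BAT sham, a ratio of 4.38 (3.19 to 6.10), and 118.2 CPM in BeAT surgery and 55.8 in BeAT sham, a ratio of 2.12 (1.59 to 2.81). The shams themselves differed: set against BeAT sham, the BAT surgery ratio was 0.918. Plxna4 had 225.5 CPM in BAT surgery and 62.5 in BAT sham, a ratio of 3.61 (3.14 to 4.16), with the epididymal genes at 1365 and 5.30 CPM in sum, and 99.7 against 54.3 CPM in BeAT, which was not called. The further members called in BeAT were Sema6d at 305.3 CPM after surgery and 116.3 in sham (ratio 2.63, 2.19 to 3.16), Sema3a at 71.4 and 9.65 CPM (7.40, 4.34 to 13.2), Plxna1, a receptor of Sema6d, at 96.0 and 33 CPM (2.91, 2.07 to 4.11), Plxna2 at 84.9 and 24.4 CPM (3.49, 2.38 to 5.15), and Sema4b at 83.7 and 26.9 CPM (3.11, 2.14 to 4.54).

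Cluster 4, led by F13a1, Cd163 and Mrc1, and cluster 13, led by Saa3, Msr1 and Rgs1, made up the class in different shares. BAT surgery had 517 and 446 nuclei in them against 1137 and 149 in BAT sham, and BeAT surgery had 76 and 146 against 444 and 228 in BeAT sham. Sema4d was at 98.2 CPM in cluster 13 of BAT surgery and 61.5 in that of BAT sham, 1.60-fold higher, and 1.17-fold higher in the BeAT pair, so neither was called within the cluster. Of all genes, 21.2% were called in cluster 13 and 15.8% in cluster 4 of BAT, and 25.2% and 20.9% in those of BeAT. The calls of Plxna4 did not lie in the same cluster in both pairs. In cluster 13 of BAT it had 409.1 CPM after surgery and 103.8 in sham, a ratio of 3.94 (2.98 to 5.31), and in cluster 4 it was 1.31-fold higher; in cluster 4 of BeAT it had 183.2 and 45.4 CPM, a ratio of 4.04 (2.72 to 6.0).

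Within cluster 13 the pairs gave opposite directions for Nrp1, which showed no call in the class as a whole. It had 917.2 CPM in BAT surgery and 282.4 in BAT sham, a ratio of 3.25 (2.74 to 3.88), but 340.6 CPM in BeAT surgery and 797.5 in BeAT sham, 2.34-fold lower. Nrp2 was 2.06-fold higher in BAT surgery there, at 229.7 CPM against 111.4. Sema6d had 350.1 CPM in BeAT surgery and 15 in BeAT sham, a ratio of 23.4 (12.8 to 47.7), and 44.5 against 13.4 CPM in BAT, a ratio of 3.31 (1.52 to 8.57). Sema3a, Sema4b, Plxna2 and Plxna1 also kept their BeAT calls in cluster 13, at ratios of 7.33, 4.25, 3.33 and 3.13. Sema4a was 2.89-fold higher there in BeAT surgery and 2.23-fold lower in BAT surgery, and Plxnd1 was 3.59-fold lower in BAT surgery, at 41.7 CPM against 149.9. The macrophage-like nuclei of BeAT surgery also held more lymphoid RNA, with 871.5 CPM over the 9 genes against 411.2 in BeAT sham, and less adipocyte RNA, 470.2 against 2521 CPM over the 8 genes. The 8 skeletal muscle markers summed to 875.2 CPM in these nuclei of BeAT surgery and 11.7 in those of BeAT sham, and the 8 T or NK markers to 224 and 24.4 CPM. Both Sema4d and Sema4b were found in lymphocyte classes of the same library, at 462.1 and 113.9 CPM in its B cell-like nuclei, and the part of RNA from any of these sources was not tested.

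**Figure D4:**
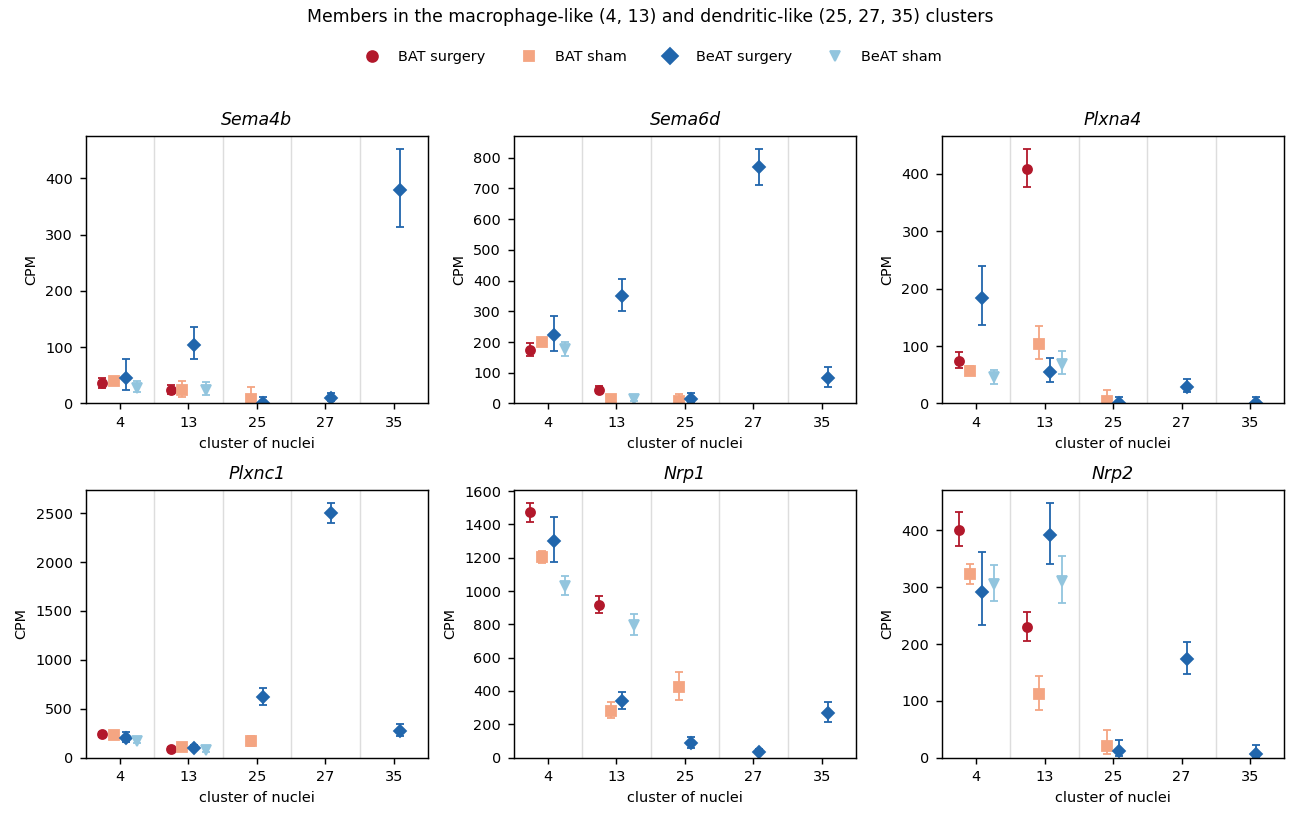
CPM of Sema4b, Sema6d, Plxna4, Plxnc1, Nrp1 and Nrp2 in macrophage clusters 4 and 13 and dendritic clusters 25, 27 and 35, 1 point per library with at least 50 nuclei and bars for exact 95% Poisson intervals of counting error. Plxnc1 and Sema6d peak in cluster 27 of BeAT surgery at 2503 and 769.3 CPM, Sema4b in cluster 35 at 378.8 CPM, and Nrp1 of cluster 13 is higher in BAT surgery and lower in BeAT surgery than in the matching sham.

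Among the macrophage lists, Trem2, a lipid-sensing receptor that forms a complex with Plxna1 and the adaptor Tyrobp in mouse dendritic cells, was 2.71-fold higher in BAT surgery, at 70.1 CPM against 25.8 in BAT sham, and 21.0-fold lower in BeAT surgery, at 3.69 CPM against 77.7 in BeAT sham. Tyrobp was lower in both, at 68.8 against 184 CPM in BAT and 68.9 against 290 CPM in BeAT. The class held 812371 UMIs of all genes in BeAT surgery, so Trem2 rests on few UMIs there. These values are for the whole class. Cluster 13 made up 46.3% of it in BAT surgery and 11.6% in BAT sham, and 65.8% and 33.9% in BeAT. Of 8 receptor partners in BAT, 2 were called higher and 5 lower, and 5 of 7 were lower in BeAT; their median log2 ratio was -0.73 in BAT and -1.53 in BeAT. Kdr, Flt1 and Itga1, genes of vessels and stroma, were among those lower in BAT surgery at 1.27, 3.19 and 2.55 CPM against 13, 17.7 and 36.9 in BAT sham. The VEGF ligands had 2 of 3 lower in BAT and 2 of 2 lower in BeAT. In these nuclei the 8 adipocyte genes summed to 703.9 CPM in BAT surgery and 2768 in BAT sham. In BeAT the sums were 470.2 CPM after surgery and 2521 in sham. The part of adipocyte RNA in the VEGF ligand calls was not tested. Effectors had 1 higher and 3 lower of 28 in BAT, and 7 higher and 4 lower of 25 in BeAT, where Cfl1 was 4.20-fold lower. Other guidance families had 2 higher and 4 lower of 9 in BAT and 1 higher and 2 lower of 3 in BeAT. Median log2 ratios in BAT and BeAT were -1.83 and -1.65 for VEGF ligands, 0.05 and 0.19 for effectors, and -0.43 and 0.64 for other guidance families.

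Dendritic-like nuclei could be compared in BeAT only, with 359 nuclei after surgery and 64 in sham. Of 9 members with enough UMIs, 4 were called higher and 1 lower, against 23.9% of all genes called (13.1% higher, 10.8% lower). Plxnc1, the Sema7a receptor, had 1630.4 CPM in BeAT surgery and 479.5 in BeAT sham, a ratio of 3.4 (2.74 to 4.28), and Sema6d had 461.7 and 68.5 CPM, a ratio of 6.74 (3.83 to 13.1). Sema7a had 75 UMIs in BeAT surgery and 2 in BeAT sham, a ratio of 4.27 (1.14 to 35.9), and Sema4b had 128 UMIs against 0, at least 4.86-fold higher when 3 counts are set for the sham library. Nrp1 was 4.57-fold lower (3.42 to 6.07), at 94.9 CPM against 433.9. The lymphoid genes summed to 460.4 CPM in the class after surgery and 62.8 in sham, and the adipocyte genes to 763.5 and 3819 CPM. The class was made of different clusters in the libraries. BeAT surgery held 173 of its nuclei in cluster 27, which carries Ccr7, a receptor of migrating dendritic cells, and 84 in cluster 35, led by Siglech, a marker of plasmacytoid dendritic cells, whereas 45 of the 64 nuclei of BeAT sham lay in cluster 25, led by Wdfy4 and Flt3. Within BeAT surgery, clusters 25, 27 and 35 had 623.7, 2503 and 274.6 CPM of Plxnc1, 14.8, 769.3 and 82.1 CPM of Sema6d, and 0, 9.06 and 378.8 CPM of Sema4b. In cluster 25, Plxnc1 and Nrp1 had 623.7 and 85.7 CPM in BeAT surgery, and 165.4 and 421.8 CPM in BAT sham.

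In T or NK-like nuclei, BAT had 3 members with enough UMIs and 1 call, against 9.48% of all genes called (3.11% higher, 6.37% lower): Nrp1 was 2.84-fold lower (1.68 to 5.10), at 70.9 CPM in BAT surgery and 201.8 in BAT sham, on 17 and 90 UMIs. In these nuclei the 8 adipocyte genes summed to 989.1 CPM in BAT surgery and 2657 in BAT sham, and the 9 epididymal genes to 3051 and 4.49 CPM. Adipocyte-like nuclei carry Nrp1 at 427.5 and 451.3 CPM in the same libraries, and the part of such RNA was not tested. In BeAT, 7 members had enough UMIs and 1 was called higher, against 19% of all genes called (7.18% higher, 11.9% lower). It was Sema4f, with 141 UMIs in BeAT surgery and 1 in BeAT sham, 32.8 against 2.99 CPM and a ratio of 10.9 (1.93 to 435.5). Sema4d, at 446.8 CPM in BeAT surgery and 251.5 in BeAT sham, was not called. The make-up of the class differed too. Cluster 29, led by Klra7 and Ncr1, made up 1.08% of it in BeAT surgery and 26.5% in BeAT sham. In BAT that cluster made up 16.1% after surgery and 34.2% in sham. What part this had in the calls was not tested.

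**Figure D5:**
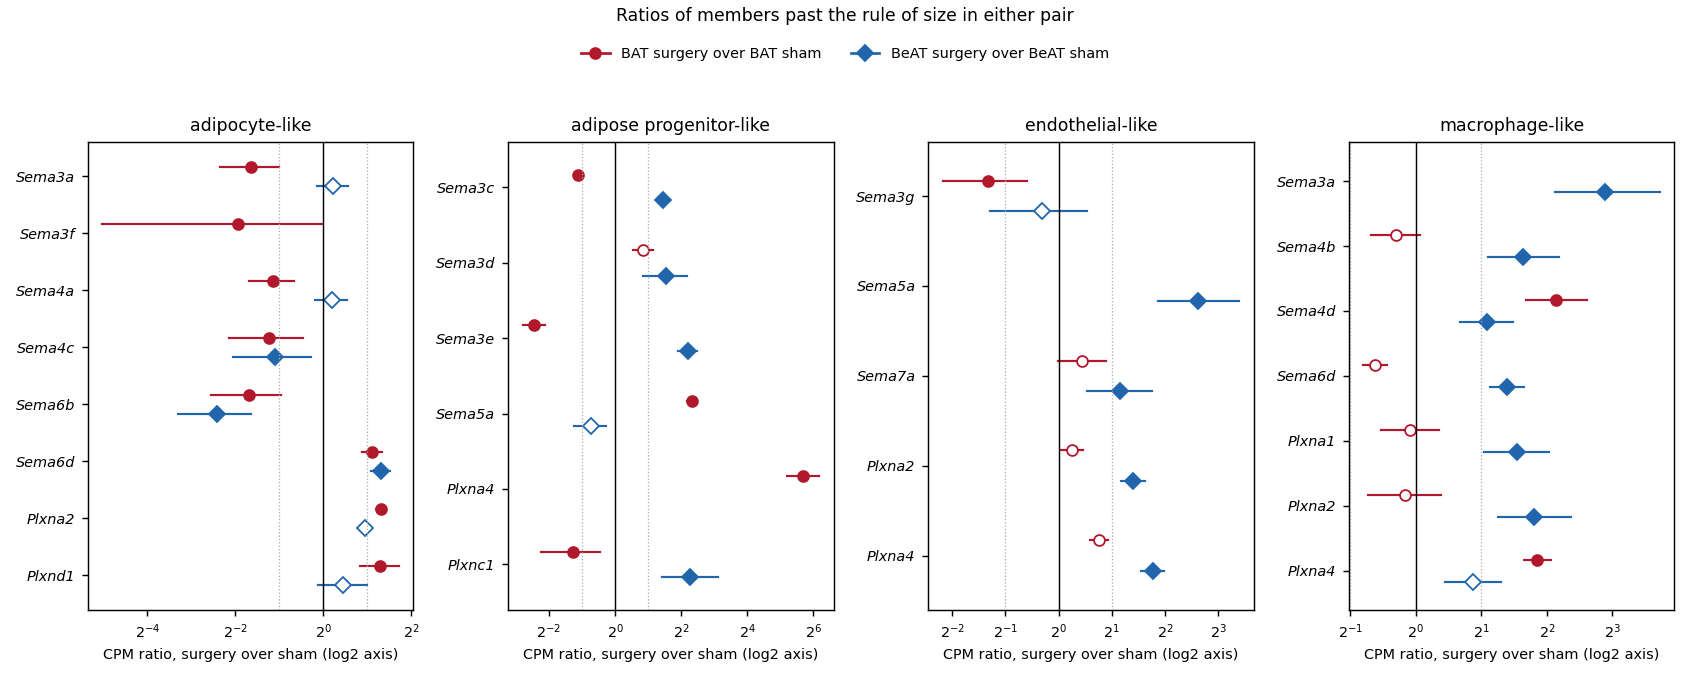
Ratios of surgery over sham CPM on a log axis for the members called in either pair, by class, with exact conditional 95% intervals of counting error; filled points passed the rule and open points did not, and members with a library at 0 or under 50 UMIs are left out. Plxna4 of BAT progenitor-like nuclei is farthest to the right at 51.0, and Sema3c and Sema3e of progenitor-like nuclei lie on opposite sides of 1 in the BAT and BeAT pairs.

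The epithelial-like nuclei of BAT surgery, which the labels do not mention, also carried semaphorin transcripts. They had 725.3 CPM of Sema3c, 379.2 of Sema5a, 61.3 of Sema3d and 42.3 of Sema5b, the last being this ligand's highest level in any named class. Their clusters differed: Sema3c had 1018 CPM in cluster 7 and 221 in cluster 32, Sema3d had 208.3 CPM in cluster 9 and 64.2 in cluster 16, and Sema5a had 1039 CPM in cluster 24 and 132.4 in cluster 7. Sema5b was at 78.7 CPM in cluster 7 and 85.7 in cluster 14. Of the 59 epithelial-like nuclei of BAT sham, 57 lay in cluster 36, which held no nuclei of BAT surgery, and 2 in cluster 20. The class therefore held different clusters in the libraries, and its ratios of surgery over sham are not described.

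Between the sham libraries, in the 4 classes with most UMIs, between 3% and 5.04% of genes were called, and Sema3c, Sema3d and Sema3e of progenitor-like nuclei were among them. In BAT sham over BeAT sham, 3 of 20 members were higher in progenitor-like nuclei and none lower, against 3.48% of all genes called (2.19% higher, 1.3% lower). Sema3c had 750.8 CPM in BAT sham, against 291.1 in BeAT sham, a ratio of 2.58 (2.40 to 2.77), Sema3d had 36.0 and 17 CPM, a ratio of 2.12 (1.57 to 2.90), and Sema3e had 209.3 and 69.9 CPM, a ratio of 3.0 (2.60 to 3.47). These shams are also the denominators of the surgery comparisons above, so a high BAT sham and a low BeAT sham enter both. Cluster 11, where Sema3e lay, made up 778 of 1787 progenitor-like nuclei in BAT sham and 237 of 984 in BeAT sham, and within it, with 4.43% of all genes called, Sema3e was at 450.7 and 255.1 CPM and was not called. In adipocyte-like nuclei 1 of 18 members was called, against 3% of all genes (1.81% higher, 1.19% lower): Sema3f, at 2.13 against 0.910 CPM. In endothelial-like nuclei it was 1 of 13, against 5.04% (1.88% higher, 3.17% lower): Sema4c, at 24.1 against 10.9 CPM. In macrophage-like nuclei 3 of 15 were called, against 4.72% (2.32% higher, 2.39% lower), with Sema6a 2.31-fold and Sema3c 2.21-fold higher in BAT sham and Sema4d 4.77-fold lower, at 11.7 CPM against 55.8 in BeAT sham. In Schwann-like nuclei 2 of 7 were called, against 38.7% of all genes (23.8% higher, 14.9% lower); Sema5a was 3.25-fold higher (1.96 to 5.74) and Nrp2 2.02-fold lower (1.25 to 3.26) in BAT sham. Of the genes of the pathway lists, at most 2 in a list were called higher and at most 2 lower in any of the 4 classes of the sham pair.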

How the data were processed

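Each library's deposited file holds raw UMI counts per gene and barcode, made by the authors; per the submitters' processing notes the build was mm10 and Seurat (versions 4 and 4.4.0) was used. No source used here names the aligner, the counter or the use of strand. Per the labels, libraries followed a SeekGene protocol; the molecule is labelled nuclear RNA although the protocol describes a suspension of digested cells. Total counts were 60409801 in BAT surgery, 47525684 in BAT sham, 23118695 in BeAT surgery and 35675477 in BeAT sham.

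Barcodes with at least 500 UMIs, 300 genes and under 10% mitochondrial UMIs were kept. Scrublet, run per library with 6% expected, removed 811, 446, 647 and 623 barcodes in that order; where its own threshold marked under 0.5% or over 20%, the top 6% were removed, as in BeAT sham. Scanpy 1.11.5 scaled nuclei to 10000, took logs, 2000 variable genes, 30 components and 15 neighbours, and leidenalg 0.10.2 clustered at resolution 1.0 (Python 3.11.15, numpy 2.4.6, scipy 1.17.1, pandas 2.3.3, matplotlib 3.10.9). A cluster was named "-like" where at least 3 listed markers were raised 2-fold and led over other lists. The naming limits, and leaving the erythroid list out as a rival, were set after the clusters were seen. Lists of related cells were also not counted as rivals of each other, among them the adipose progenitor and mesothelial lists. Clusters 3, 17, 18, 21, 26 and 30 stayed unnamed.

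UMIs were summed per library and class (at least 50 nuclei) and given as CPM. Named members are those called, those at 50 CPM or more in a class and those needed to account for all 31. Medians of log2 ratios use genes with at least 20 UMIs. Intervals are exact Poisson (levels) or conditional binomial (ratios) and cover counting error only; the calls were checked on simulated counts. The members, gene lists and comparisons were chosen with earlier results of these data known. Whether replicate animals were pooled is not stated, and no p-value is given.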

Additional observations from a re-analysis of the deposited data

Results flagged for a closer look

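For 3 members of progenitor-like nuclei the surgery and sham libraries differed in opposite directions under the tissue labels. The ratio of surgery over sham was 0.182 in BAT and 4.59 in BeAT for Sema3e, 0.46 in BAT and 2.75 in BeAT for Sema3c, and 0.412 in BAT and 4.78 in BeAT for Plxnc1. The difference between the pairs was not tested, since each group is 1 library, and the clusters that make up the class differ between the libraries.

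A class outside the comparisons held a member above every named class of its library: Sema5a stood at 624 CPM in cluster 30 of BeAT surgery, an unnamed cluster led by Csmd1, Nxph1 and Pcdh15 that had no counterpart of 50 nuclei in BeAT sham.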

How the results depend on the processing

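No paired analysis was possible because the labels give no replicate numbers. The tissue labels make 2 pairs of surgery and sham, which were read side by side without a model over the 4 libraries, and with 1 library per group none was left out. Counts of members called changed by over 1.5 times as follows. With nuclei thinned to 1000 UMIs, 3 members rather than 8 were called in BAT adipocyte-like nuclei, 0 rather than 1 in BAT endothelial-like, 1 rather than 3 in BeAT adipocyte-like, 2 rather than 4 in BeAT endothelial-like and 1 rather than 6 in BeAT macrophage-like nuclei, and 0 rather than 1 in the sham adipocyte-like and sham endothelial-like pairs; thinning leaves fewer UMIs than the minimum for many. With doublets kept, there were 3 rather than 5 in BAT progenitor-like and 2 rather than 1 in BAT endothelial-like nuclei. With no minimum of UMIs, BAT endothelial-like nuclei had 2 and BeAT adipocyte-like nuclei 5. With the trend on gene span removed, BAT endothelial-like nuclei had 0, BeAT progenitor-like 8 rather than 4, and the sham endothelial-like pair 2; the cause was not tested. Chosen after seeing the data, the largest shared cluster alone gave 0 in BAT endothelial-like nuclei (cluster 10) and 1 in BAT macrophage-like (cluster 4). In BeAT it gave 1 in progenitor-like (cluster 11) and 2 in endothelial-like nuclei (cluster 10). For the sham pair it gave 0 in adipocyte-like (cluster 1) and 1 in macrophage-like nuclei (cluster 4). These clusters held fewer nuclei. Sema3e of BAT progenitor-like nuclei moved to 1.59 (cluster 15), with an interval that included 1. With the other label's sham library, also chosen after seeing the data, there were 3 in BAT progenitor-like and 2 in BAT endothelial-like nuclei. BAT macrophage-like nuclei had 1 and BeAT endothelial-like nuclei 2. There 2 ratios moved past 1 but stayed under the fold required. They were Sema3c of BAT progenitor-like nuclei, at 1.19, and Sema4d of BAT macrophage-like nuclei, at 0.918. Of the 41 single calls, 21 were lost under thinning, 8 with the span trend removed, 4 with doublets kept and 1 with median-of-ratios size factors. None was lost with clusters made without the members or with no minimum of UMIs. With the other label's sham library, 19 of the 33 surgery calls were kept. Within the largest shared cluster, 1 of 1 was lost in cluster 1, 4 of 5 in cluster 4 and 2 of 3 in cluster 8. Further losses were 3 of 6 in cluster 10, 3 of 4 in cluster 11 and 1 of 6 in cluster 13. Cluster 15 kept 2 of 5 and cluster 2 kept 3 of 3. Leaving out nuclei with a mesothelial UMI, likewise chosen after seeing the data, lost 2 of 12 progenitor calls, both of Plxnc1. Of 84 member and library pairs, the leading class was the same in 77 with clusters made without the members and in 69 after thinning. Depth limits the low members most, and low counts cannot be told apart from RNA of other cells.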

Other observations

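Nuclei outside the named classes also carried members of the family. Cluster 18, led by the mural genes Rgs5 and Myh11, had 377.4 CPM of Sema5a in BAT surgery, 359.1 in BAT sham and 171.2 in BeAT sham, and 885.6, 720.1 and 585.5 CPM of Nrp1 in the same libraries. Sema6a was 8.39-fold lower in this cluster in BAT surgery, at 30.8 CPM against 258.4 in BAT sham, on 4 and 262 UMIs, where 12.4% of all genes were called. Cluster 18 stayed unnamed because endothelial markers were also raised in it: the 10 summed to 985.7 CPM in BAT surgery and 2231 in BAT sham, beside 5768 and 4692 CPM over 7 pericyte markers. Endothelial-like nuclei of BAT sham had 1549 CPM of Sema6a, and the part of endothelial RNA in these ratios was not tested. Plxna4 was 4.03-fold lower there, at 15.4 CPM against 62.2, on 2 and 63 UMIs (ratio 0.248, 0.0294 to 0.933). The cluster had 50 nuclei in BAT surgery and 295 in BAT sham.

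Cluster 26 of BeAT sham, led by the neuronal genes Meg3, Nrg3 and Syt1, had 271.8 CPM of Plxna4, 223 of Nrp1 and 181.2 of Plxna2 in 179 nuclei. Cluster 30 of BeAT surgery had 969.3 CPM of Nrp1 and 286.1 of Plxna2 in 164 nuclei, beside the Sema5a level given above.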
